A study of Rattus norvegicus with 24 samples.

Results

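Laminins are the cross-shaped glycoproteins on which basement membranes are built, and each is a trimer of an alpha, a beta and a gamma chain encoded by separate genes. In the kidney, Lama5, Lamb2 and Lamc1 encode the chains of the mature glomerular basement membrane, Lamb1 and Lamc1 contribute to that of the tubules and Lama1 is known from proximal tubule basement membranes. Lama3 and Lamb3 encode chains of the laminin that anchors epithelia through hemidesmosomes. The laminin chains described here were the 9 genes Lama1, Lama3, Lama4, Lama5, Lamb1, Lamb2, Lamb3, Lamc1 and Lamc3, taken by gene symbol and not by how they behaved. A transcript cluster carrying the symbol of 1 of these genes alone was found for 8 of the 9, each with a single such cluster, among 14332 genes with a named cluster. Lama4 had no cluster named in the annotation used and was not analysed here. The cluster of Lamb1 was named from a table of the study, and the study had picked Lama1 and Lamb1 on these same arrays for their difference in cortex, so that their cortex values are not independent evidence.

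The arrays came from male Wistar rats, a laboratory strain, of which 6 lithium-treated rats received 40 mmol of lithium per kg of food over 7 days and 60 mmol per kg afterwards, to a total of 6 months, while 6 control rats ate the standard diet over the same time. The lithium-treated rats also had a salt block, so the diets did not differ in lithium alone. Pieces of medulla and of cortex of the same 12 animals were put on 24 arrays, 6 for each of lithium medulla, control medulla, lithium cortex and control cortex. All values are log2 signal intensities as deposited, so that a difference of 1 is a 2-fold change, and levels were not compared between genes.

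Some arrays stood apart. The cortex array of lithium-treated animal 17 equals the mean of the other lithium cortex arrays to within 8e-05 and carries no value of its own, so lithium cortex means and SDs are over 5 arrays. In cortex, lithium-treated animal 19 had the highest mean of the fibroblast markers (9.08), the macrophage markers (7.99) and the smooth muscle markers (8.48) and the lowest of the proximal tubule markers (10.21) among the lithium and control arrays. In medulla, the mean of the 5 tested markers of the thick ascending limb and distal tubule ran between 5.89 (animal 17) and 10.26 over the lithium arrays and between 7.61 (animal 30) and 10.93 over the control arrays. In control medulla all 12 proximal tubule markers were lower than in control cortex. Their median log2 difference was -3.32 on values over the array median, against 0.15 over all clusters. Higher were 6 of 7 papilla and thin limb, 6 of 7 endothelium and 6 of 10 principal cell and collecting duct markers. In the last list 2 were lower, and of 9 podocyte markers 5 were lower and 3 higher. Of 6 thick ascending limb and distal tubule markers 2 were lower. Of the smooth muscle markers 2 of 7 were higher, as were 2 of 5 fibroblast and 1 of 3 urothelium markers, and no macrophage marker passed. Over all clusters tested, 34.5% passed as higher and 17.9% as lower. By diet, 3 of 7 macrophage markers were higher and 1 of 7 endothelium markers was lower in lithium medulla, neither list had a call in cortex, and no fibroblast, smooth muscle, proximal tubule, thick ascending limb or papilla marker passed in either tissue. Of 9 markers of principal cells and the collecting duct, 5 were lower and 1 was higher in lithium cortex, with a median log2 fold change of -0.87 against 0.010 over all clusters tested, and none passed in medulla. Of the podocyte markers 1 of 8 was lower in lithium medulla and none of 9 passed in cortex, and no urothelium marker passed (1 tested in cortex, 3 in medulla). The part of these cell markers in the laminin values was not tested.

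**Figure D1:**
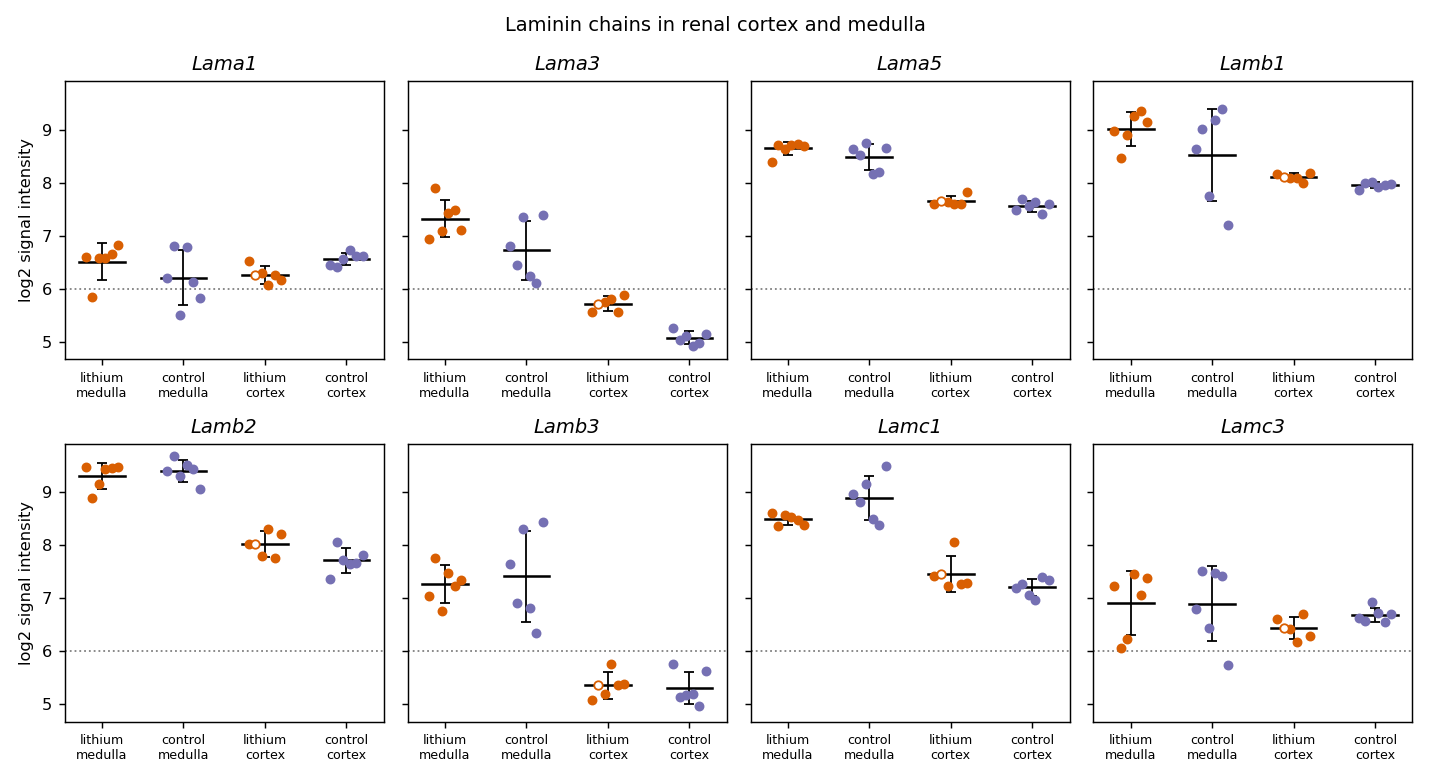
Log2 signal intensity (y axis) of the 8 measured laminin chains in lithium medulla, control medulla, lithium cortex and control cortex (x axis), with 1 point per array, a line at the mean and bars of 1 SD; the open point is the cortex array of lithium-treated animal 17, which equals its group mean and is left out of mean and SD, and the dotted line marks the filter value of 6. Lama3 lies at 5.56 to 5.88 in lithium cortex and at 4.91 to 5.25 in control cortex, and the control medulla points of Lamb1 spread between 7.19 and 9.38.

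In cortex, Lama3 separated lithium-treated from control rats, and did so at levels under the filter value. Lama3 encodes the alpha chain of the hemidesmosomal laminin. Its signal was 5.56, 5.75, 5.79, 5.56 and 5.88 in the lithium-treated animals 6, 18, 19, 21 and 22, against 5.25, 5.04, 5.10, 4.91, 4.97 and 5.15 in the control animals 1, 13, 15, 16, 29 and 30. Every lithium array lay above every control array, and 2.09% of all clusters had groups that did not overlap, in either direction. The means were 5.71 ± 0.142 (SD, n = 5) in lithium cortex and 5.07 ± 0.125 (SD, n = 6) in control cortex. No cortex array reached 6, the log2 value that a cluster had to reach on 4 of 12 arrays of a tissue to be tested, so Lama3 was not among the 13766 clusters tested in cortex. With all 28894 clusters tested, limma with scan group in the fit gave Lama3 a log2 fold change of 0.64 (95% interval 0.42 to 0.86, adjusted p = 0.0300), where 0.221% of clusters passed. By scan group, the sets of arrays that were scanned together as far as the values show, the difference was 0.41, 0.77 and 0.66 in the 3 sets with arrays of both diets. Leaving out 1 array at a time moved it between 0.59 and 0.72 and its adjusted p between 0.0177 and 0.118, and the call was lost without control animals 13, 15, 16, 29 or 30 or lithium-treated animals 18, 21 or 22. In pieces of tissue, here and in every value below, fewer cells of a type and less RNA per cell cannot be told apart. Values of this size were not shown to be above background, as no measure of background was used.

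Lamb3, which encodes the beta chain of the hemidesmosomal laminin, showed no such separation in cortex. It lay between 5.09 and 5.75 with a mean of 5.36 ± 0.253 (SD, n = 5) in lithium cortex, and between 4.97 and 5.75 with a mean of 5.31 ± 0.306 (SD, n = 6) in control cortex. Its log2 fold change was 0.048 (95% interval -0.32 to 0.42, adjusted p = 0.957 from limma, all clusters tested).

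The promoter of Lama3 is shown because Lama3 passed in cortex with all clusters tested, although it was under the filter there. That of Lamb3 is shown because Lamb3 varied with Lama3 among the medulla arrays and did not pass in that same cortex fit. The 250 bases before the start that RefSeq gives (build GRCr8) were searched on both strands for the AP-1 site TGACTCA, whose reverse complement is TGAGTCA, for the cAMP response element TGACGTCA, which is its own reverse complement, and for the GC box GGGCGG, whose reverse complement is CCGCCC, with overlapping matches counted. Capitals mark the AP-1 matches.
Lama3, chr18:3952517-3952766, plus strand: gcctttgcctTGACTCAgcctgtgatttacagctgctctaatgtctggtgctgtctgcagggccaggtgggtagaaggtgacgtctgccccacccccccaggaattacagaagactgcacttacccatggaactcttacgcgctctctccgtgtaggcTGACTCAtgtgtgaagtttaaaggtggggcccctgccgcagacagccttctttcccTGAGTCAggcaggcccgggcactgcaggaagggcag
Lamb3, chr13:107362303-107362552, plus strand: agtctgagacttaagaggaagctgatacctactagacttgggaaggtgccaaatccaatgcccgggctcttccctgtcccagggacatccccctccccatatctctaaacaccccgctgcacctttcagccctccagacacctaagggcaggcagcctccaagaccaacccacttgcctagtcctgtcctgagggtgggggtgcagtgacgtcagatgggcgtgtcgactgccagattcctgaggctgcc
The Lama3 window held 3 AP-1 matches, which begin 240, 92 and 36 bases before the start. At least 1 such match was held by 4.05% of 33469 promoters of the same length, and 3 or more by 0.009%. The Lamb3 window held none, and held 1 cAMP response element 44 bases before the start, as 1.59% of promoters did. The GC box, held by 30.5% of promoters, occurred 4 times for Lama5, 2 times for Lamb1, 5 times for Lamc1 and 1 time for Lamc3, and not for Lama1, Lama3, Lama4 or Lamb3. Promoters were given for 8 of the 9 genes, all but Lamb2. The start used for Lama3 lies inside the span of the gene in the same annotation. A match is a description of the sequence, and no binding was measured.

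The other 6 chains passed the filter in cortex and none passed the test there, where 0.574% of the clusters tested passed in limma with scan group in the fit. Lama1 alone had an unadjusted p under 0.05, and without limma's moderation of the variance Lama1 and Lamb1 did, with none left after adjustment. Lithium and control arrays overlapped in each of the 6, and 2.57% of the clusters tested had groups that did not overlap. Their median log2 fold change was 0.13, against 0.010 over all clusters tested. Lama1 had 6.52, 6.29, 6.08, 6.25 and 6.16 in the lithium cortex of animals 6, 18, 19, 21 and 22, against 6.45, 6.41, 6.55, 6.73, 6.61 and 6.62 in the control cortex of animals 1, 13, 15, 16, 29 and 30. The groups overlapped through lithium-treated animal 6 alone. The log2 fold change of Lama1 was -0.30 (95% interval -0.53 to -0.074, adjusted p = 0.482 from limma), and within scan groups it was 0.088, -0.45 and -0.41. Lamb1, the beta chain gene of tubular basement membranes, had means of 8.10 ± 0.0723 (SD, n = 5) in lithium cortex and 7.95 ± 0.0564 (SD, n = 6) in control cortex. Its lowest lithium array (7.99) lay under the highest control array (8.004), and the difference of 0.15 did not pass (95% interval -0.020 to 0.33, adjusted p = 0.710 from limma).

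Lamb2, the beta chain gene of glomerular and vascular basement membranes, ran between 7.76 and 8.31 in lithium cortex with a median of 8.01 and between 7.36 and 8.07 in control cortex with a median of 7.69. The ranges overlapped, and the log2 fold change was 0.31 (95% interval -0.015 to 0.63, adjusted p = 0.681 from limma). Lamc1, the gamma chain gene found in most laminins, had 7.41, 7.23, 8.05, 7.27 and 7.29 in lithium cortex of animals 6, 18, 19, 21 and 22, against a range of 6.97 to 7.41 in control cortex. Animal 19 stood apart from the other lithium arrays, and the log2 fold change of 0.25 (adjusted p = 0.769 from limma) was 0.077 without that animal. The part of the fibroblast, smooth muscle and macrophage markers of animal 19 in its Lamc1 value was not tested. Lamc3, a gamma chain gene of fewer tissues, had means of 6.44 ± 0.215 (SD, n = 5) in lithium cortex and 6.68 ± 0.139 (SD, n = 6) in control cortex, a log2 fold change of -0.25 with overlapping ranges (adjusted p = 0.685 from limma). Lama5, the alpha chain gene of most adult epithelial basement membranes, differed least among the 6, with means of 7.65 ± 0.0997 (SD, n = 5) in lithium cortex and 7.56 ± 0.103 (SD, n = 6) in control cortex and a log2 fold change of 0.10 (95% interval -0.10 to 0.29).

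**Figure D2:**
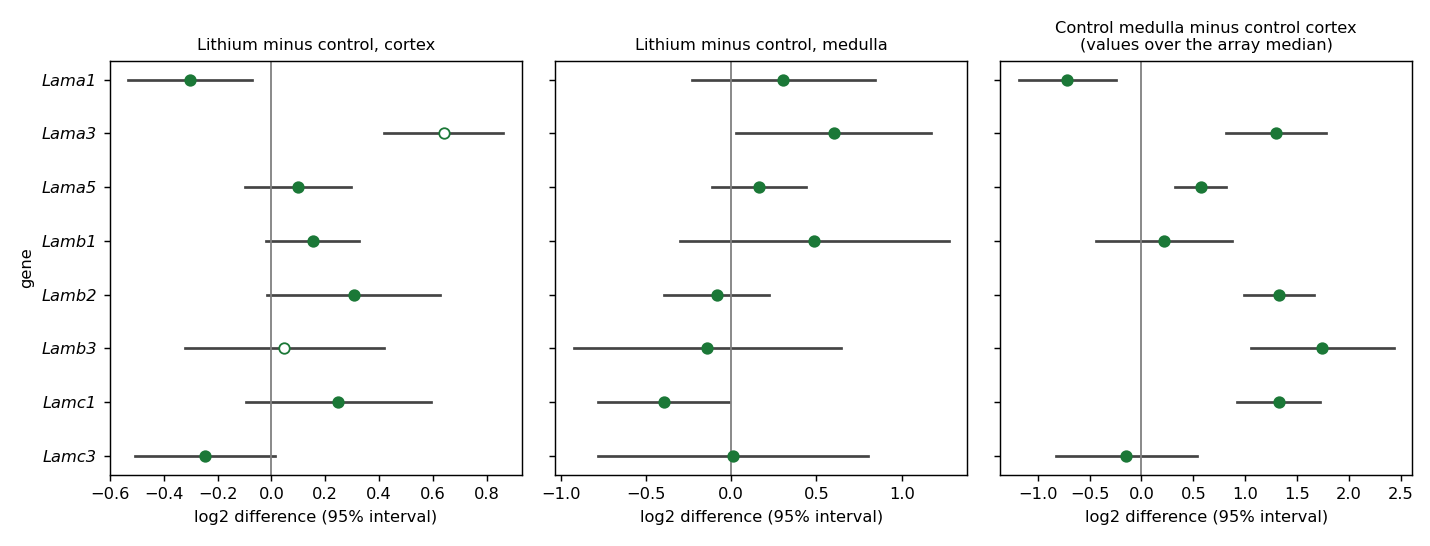
Log2 difference (x axis) with its 95% interval from limma for each laminin chain (y axis), for lithium minus control in cortex (left), lithium minus control in medulla (middle) and control medulla minus control cortex on values over the array median (right); open points are chains under the filter in cortex, fitted with all clusters tested. The Lama3 difference is 0.64 in the left panel and 0.60 in the middle one, and that of Lamb3 is 1.74 in the right panel.

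In medulla, none of the 8 measured chains passed the test, where 1.19% of 16025 clusters tested passed in limma with scan group in the fit, and 2 chains, Lama3 and Lamc1, had an unadjusted p under 0.05, which none had without limma's moderation of the variance. The median log2 fold change of the 8 was 0.085, against -0.0086 over all clusters tested. Lama3 had 6.93, 7.91, 7.08, 7.42, 7.48 and 7.11 in the lithium medulla of animals 6, 17, 18, 19, 21 and 22, against 6.81, 6.44, 7.36, 6.23, 6.10 and 7.39 in the control medulla of animals 1, 13, 15, 16, 29 and 30. Every lithium array lay above 4 of the control arrays, and those of control animals 15 and 30 were inside the lithium range. The log2 fold change of Lama3 was 0.60 (95% interval 0.029 to 1.17, adjusted p = 0.234 from limma), with 0.80, 0.45 and 0.55 within the 3 scan groups, and it was 0.97 without control animals 15 and 30 (adjusted p = 0.0660), an omission chosen after the data were seen. The difference of the lithium effect on Lama3 between medulla and cortex was -0.039 (95% interval -0.68 to 0.60, adjusted p = 0.969 from limma).

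Lamc1 had a lower mean in lithium medulla and did not pass. It had 8.61, 8.36, 8.57, 8.53, 8.48 and 8.39 in the lithium medulla of animals 6, 17, 18, 19, 21 and 22, against 8.97, 8.81, 9.15, 8.49, 8.39 and 9.50 in the control medulla of animals 1, 13, 15, 16, 29 and 30. The lithium arrays lay close together, and 4 of the 6 control arrays lay above all of them. The log2 fold change was -0.40 (95% interval -0.78 to -0.011, adjusted p = 0.243 from limma), with -0.40, -0.28 and -0.51 within scan groups, and -0.14 without control animals 15 and 30. The lithium effect on Lamc1 in medulla minus that in cortex was -0.64 (95% interval -1.17 to -0.12, unadjusted p = 0.0188, adjusted p = 0.328 from limma), and no chain passed this test, which 0.0915% of clusters passed. The endothelium markers moved in the same sense in medulla, with a mean over 7 markers between 8.38 and 8.81 in lithium medulla and between 8.69 and 9.32 in control medulla, and Emcn, an endothelial sialomucin, was the marker of that list that passed (log2 fold change -0.91). Their part in the Lamc1 values was not tested.

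No chain was free of overlap between diets in medulla, where 3.71% of clusters tested were, and the remaining chains overlapped widely. Lamb1 ran between 8.46 and 9.35 in lithium medulla with a median of 9.05 and between 7.19 and 9.38 in control medulla with a median of 8.82. Its control SD was 0.872 and its lithium SD 0.322, and the log2 fold change of 0.49 (95% interval -0.30 to 1.27, adjusted p = 0.476 from limma) was -0.12 without control animals 15 and 30. Lamb3 ran between 6.75 and 7.76 in lithium medulla with a median of 7.29 and between 6.34 and 8.44 in control medulla with a median of 7.28, a log2 fold change of -0.14 (95% interval -0.92 to 0.64). Those 2 control animals were the highest of the group in Lama3, Lamb3 and Lamc1 and the lowest in Lamb1, Lama1 and Lamc3. Lama1 had means of 6.51 ± 0.343 in lithium medulla and 6.20 ± 0.517 in control medulla (SD, n = 6 each), a log2 fold change of 0.30 (95% interval -0.23 to 0.84) where that in cortex was -0.30, and the difference of both effects was 0.61 (95% interval -0.0032 to 1.22, adjusted p = 0.409 from limma). Lama5, Lamb2 and Lamc3 had log2 fold changes of 0.16 (95% interval -0.11 to 0.44), -0.086 (95% interval -0.39 to 0.22) and 0.0096 (95% interval -0.78 to 0.80), with an adjusted p of up to 0.991 from limma.

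Several chains varied together, or against each other, among the medulla arrays. Over the 12 arrays, as deviations from the mean of each diet, Lama3 and Lamb3 varied together with a Pearson r of 0.939 (Spearman rho 0.923, 2-sided permutation p = 1e-05 for r, the smallest that these permutations can give, adjusted p = 0.00028 over 28 pairs), and r was 0.883 without animals 15 and 30, the arrays farthest from the Lama3 median. Lamb1 went against Lamb3 with an r of -0.871 (rho -0.776, permutation p = 0.00025, adjusted p = 0.00175, r = -0.725 without animals 15 and 30). Lamb2 and Lamc3 went together with an r of 0.923 (rho 0.797, permutation p = 0.00008, adjusted p = 0.00112, r = 0.866 without animals 17 and 30). Of the 28 pairs, 22 had an adjusted permutation p under 0.05 by r, which took an r of at least 0.639 in size, and 11 by rho. An r of at least that size was reached by 13% of all pairs of the clusters tested in medulla, over arrays whose thick ascending limb markers differed as given above. The removal of scan date forces the deviations of a scan group to sum to zero, so that the arrays are not fully independent and arrays of 1 group deviate against each other by construction, and groups of 4 arrays were too small for values within them.

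The chains were also set against markers of the tubule segments and cell types. First came those of the distal tubule and of the thick ascending limb, the water-impermeable diluting segment of the tubule. The 5 of this joint list that passed the filter in medulla, Umod, Slc12a1, Slc12a3, Cldn16 and Egf, are called thick ascending limb markers here. Against their mean, Lamb2 had an r of 0.939 (rho 0.797, permutation p = 0.00005) and Lamc3 an r of 0.933 (rho 0.874, permutation p = 0.00007), each with an adjusted p of 0.00028 over 8 chains. Without animals 17 and 30, the arrays farthest from the median of the markers, these were 0.812 and 0.888. Lama1 and Lamb1 also ran with the markers (r = 0.765 and 0.786), while Lama3, Lamb3 and Lama5 ran against them (r = -0.785, -0.632 and -0.589), and 7 of the 8 chains had an adjusted permutation p under 0.05, all but Lamc1 (r = -0.476, permutation p = 0.120). A relation of at least the size of the weakest of the 7 (0.589) was held by 33.0% of the other clusters tested in medulla. For Lamb3, r was -0.406 without animals 17 and 30. Lithium-treated animal 17, with the lowest marker mean, had the lowest Lama1 (5.84), Lamb1 (8.46), Lamb2 (8.88) and Lamc3 (6.05) and the highest Lama3 (7.91) and Lamb3 (7.76) of the lithium medulla arrays. Other marker lists ran with the chains as strongly, given here with no test over the same 12 arrays. The macrophage markers had an r of 0.955 with Lamb1, 0.868 with Lamc3 and -0.837 with Lamc1, and the podocyte markers 0.927 with Lamb1 and 0.818 with Lamc3. The smooth muscle markers had an r of 0.938 with Lamb2, the endothelium markers 0.894 with Lamc1 and the proximal tubule markers -0.813 with Lamb3. For Lamb1, Lamc1 and Lamb3 these values were larger in size than those with the thick ascending limb markers. So was the r of Lama5 with the proximal tubule markers (-0.758). Over 11 cortex arrays, several of these relations were weaker or had the other sign. There the thick ascending limb markers had an r of 0.278 with Lamb2 and 0.276 with Lamc3. The macrophage markers had -0.218 with Lamb1, -0.469 with Lamc3 and 0.916 with Lamc1, and the podocyte markers 0.607 with Lamb1 and -0.112 with Lamc3. The smooth muscle markers had 0.551 with Lamb2, the endothelium markers 0.916 with Lamc1 and the proximal tubule markers -0.571 with Lamb3. How much of each diet difference in medulla lies in the variation between medulla pieces was not tested.

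**Figure D3:**
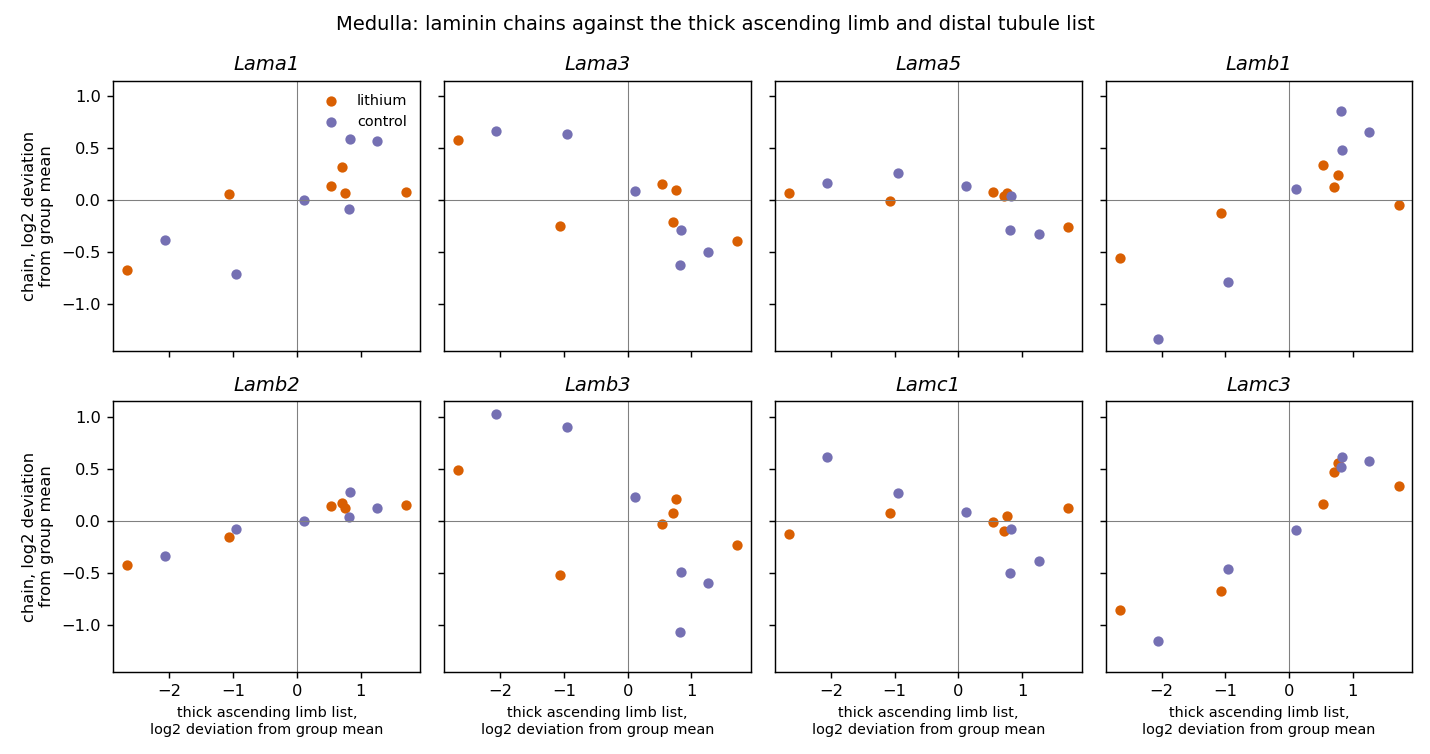
Deviation of each laminin chain from its diet mean (y axis, log2) against the deviation of the mean of 5 thick ascending limb and distal tubule markers (x axis, log2) over the 12 medulla arrays, with 1 point per array, lithium in orange and control in purple. Lamb2 and Lamc3 rise with the markers (r = 0.939 and 0.933), and Lama3 falls against them (r = -0.785).

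Control medulla and control cortex differed in most laminin chains. The arrays of the tissues have different medians, 6.12 to 6.22 in medulla and 5.75 to 5.83 in cortex, so levels were set over each array's own median. Of the 8 chains, 5 passed the test as higher in control medulla and 1 as lower, in limma over 24 arrays. Among the 5 were Lama3 and Lamb3, which passed the filter in medulla alone. They entered this test through the tissue where they were higher, so their calls and their part in the median are not independent of the filter. Of 16388 clusters tested, 52.4% passed, 34.5% as higher and 17.9% as lower. The median log2 difference of the chains was 0.93, against 0.15 over all clusters. The control groups did not overlap in the 5 chains that passed as higher. Groups did not overlap in 38% of all clusters tested in either direction, and in 25.2% with medulla higher.

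Among the 8 chains, Lamb3 had the largest difference. It stood 1.27 ± 0.856 over the array median in control medulla and -0.48 ± 0.289 in control cortex (SD, n = 6 each), a log2 difference of 1.74 (95% interval 1.06 to 2.43, adjusted p = 0.000232). Lama3 stood 0.58 ± 0.562 over the median in control medulla and -0.72 ± 0.110 in control cortex, a log2 difference of 1.29 (95% interval 0.81 to 1.78, adjusted p = 0.000134). The control cortex means of both lay under the filter value of 6, and both were tested here through their medulla values alone. Lamb2 stood 3.25 ± 0.201 over the median in control medulla and 1.93 ± 0.239 in control cortex, a log2 difference of 1.33 (95% interval 0.99 to 1.67, adjusted p = 2.05e-06). Lamc1 stood 2.74 ± 0.417 over it in control medulla and 1.42 ± 0.166 in control cortex, a log2 difference of 1.32 (95% interval 0.93 to 1.72, adjusted p = 1.41e-05).

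Lama5 was higher in control medulla by 0.57 (95% interval 0.33 to 0.82, adjusted p = 0.000527), at 2.34 ± 0.248 over the median against 1.77 ± 0.103 in control cortex. Lama1 was the chain that was lower in medulla, at 0.061 ± 0.508 over the median in control medulla and 0.78 ± 0.129 in control cortex, a log2 difference of -0.72 (95% interval -1.18 to -0.25, adjusted p = 0.0118). That call depended on the scaling and on single animals, since on values as deposited the difference was -0.36 (adjusted p = 0.152) and without control animal 30 it was -0.61 (adjusted p = 0.0522). Lamb1 differed by 0.22 (95% interval -0.43 to 0.87, adjusted p = 0.578), and by 0.85 (adjusted p = 0.000489) without control animals 15 and 30. Lamc3 differed by -0.15 (95% interval -0.82 to 0.53, adjusted p = 0.727), and by 0.21 on values as deposited.

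Within the single genes, the order of the 4 group means as deposited was lithium medulla, control medulla, lithium cortex and control cortex for Lama3, Lama5 and Lamb1, and the 2 medulla groups, whose ranges overlapped, stood the other way round for Lamb2, Lamb3 and Lamc1. These orders of deposited values hold the higher medians of the medulla arrays. For these chains the lithium and control ranges overlapped within each tissue, except for Lama3 in cortex. The control medulla range of Lamb1 (7.19 to 9.38) also held all its cortex values (7.85 to 8.17). Lama1 had means of 6.51 in lithium medulla, 6.20 in control medulla, 6.26 in lithium cortex and 6.56 in control cortex, and Lamc3 had 6.91 in lithium medulla, 6.90 in control medulla, 6.44 in lithium cortex and 6.68 in control cortex, with overlap between neighbours in the order of both genes. Among genes measured in both tissues, those whose deviations from the 4 group means were most like a chain's over 23 arrays were Pacsin3 for Lama3 (Pearson r = 0.945), Kctd11 for Lamb3 (0.955), Rin2 for Lamb1 (0.971), Adarb1 for Lamc1 (0.941), Slc9a3 for Lamc3 (0.947), Pfkp for Lamb2 (0.922), Hdgfl2 for Lama5 (0.898) and Dlat for Lama1 (0.879). These are maxima over many genes and are given with no test.

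Among the listed genes that act with laminins, only proteases passed the test of diet with scan group in the fit. Of all clusters tested, 0.574% passed in cortex and 1.19% in medulla. Of 13 laminin receptor genes, 10 were tested in each tissue and none passed in limma. Itgb4, the integrin beta chain of the hemidesmosome, had a mean of 7.05 in lithium cortex and 6.01 in control cortex, a difference of 1.04 (95% interval 0.56 to 1.51, adjusted p = 0.0775 from limma). Without scan group in the fit, 2 of the 10 receptor genes passed as higher in cortex, where 2.09% of clusters passed. Itgb4 was 1 of these 2 (adjusted p = 0.00731 from limma). Of 24 basement membrane partners, 12 were tested in cortex and 13 in medulla and none passed, with a median log2 fold change of -0.012 in cortex and -0.25 in medulla. The type IV collagen chain genes Col4a4 and Col4a3, whose products lie beside laminin in the glomerular and some tubular basement membranes, had log2 fold changes of -0.70 (adjusted p = 0.0531) and -0.62 (adjusted p = 0.0725) in medulla, and both passed without scan group in the fit (adjusted p = 0.0152 and 0.0216). Of 6 hemidesmosome genes 4 were tested in each tissue and none passed. Of 10 protease genes whose products can cleave laminin, 6 were tested in each tissue, and 1 was higher in cortex and 2 in medulla. Mmp2, the gelatinase, had means of 9.65 in lithium medulla and 7.48 in control medulla, a log2 fold change of 2.17 (adjusted p = 0.00309), and 8.60 in lithium cortex and 6.81 in control cortex, a log2 fold change of 1.79 (adjusted p = 0.00165). Bmp1, the procollagen proteinase that also trims laminin chains, rose by 0.71 in medulla (standard error 0.133, adjusted p = 0.0329). The study had reported on both genes from these arrays.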

How the data were processed

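The values are log2 signal intensities that the authors deposited for 28894 transcript clusters on 24 Affymetrix rat arrays. The methods name Partek for RMA background correction, for quantile normalization and for median polish, after which an analysis of variance took out the effect of scan date and the mean of the probe sets stood for each transcript. Partek, RMA and rn4 are also the names in the submitters' notes on processing. The sources name the array type in more than 1 way. No depth applies to arrays, and their number limits the precision.

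The laminin chains, gene lists and tests were chosen with earlier results of these data known. Clusters were named by the platform annotation, where 15097 carry 1 symbol, 323 several and 13474 none, and 8 more by the study's tables. A gene with several clusters was taken at its highest mean. A cluster was tested in a tissue where 4 or more of its 12 arrays reached a log2 value of 6 (16388 clusters in either tissue). Removing scan date leaves sets of arrays whose residuals sum to zero (tolerance 0.001), which gave the scan groups by animal, 3 groups of 4 in medulla (1, 6, 13 and 17; 15, 16, 18 and 19; 21, 22, 29 and 30) and the same in cortex except that animal 17 stands alone. No scan date is given in those sources, so a check of these groups against dates was not made. Diet and scan group were fitted with limma 3.58.1 in R 4.3.3 (lmFit and eBayes, residual degrees of freedom 7 in cortex and 8 in medulla), with Benjamini-Hochberg adjustment over all clusters tested and a threshold of 0.05. The tissue contrasts used all 24 arrays, and the scripts were tested on simulated data. Correlations were tested by 100000 permutations in numpy 2.4.6.

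Named were all 9 chains, up to 3 genes a list with the largest fold change past the threshold, and the gene most like each chain. Itgb4, Col4a3 and Col4a4 passed only without scan group and were named after their values were seen, as was Emcn. Alternatives left out the scan group, the filter or single arrays, changed the scaling, the filter value, the test or the cluster of a gene, or added the animal as a replicate block. The animal number pairs cortex and medulla in the labels. The deviations of an animal's 2 arrays correlated across clusters between -0.0754 and 0.434 over 11 animals and above 0.1 in 6.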

Additional observations from a re-analysis of the deposited data

Results flagged for a closer look

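Of 32 groups of values of the 8 measured chains, 4 held an array far from the others, where chance would flag about 1 in 20 groups. In lithium medulla, Lama1 was lowest in animal 17 at 5.84, with the next array at 6.57, and Lama5 was lowest in animal 6 at 8.39, with the next at 8.64. In lithium cortex, Lama5 was highest in animal 22 at 7.83, with the next array at 7.63, and Lamc1 was highest in animal 19 at 8.05, with the next at 7.41.

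The Lamc1 differences had opposite signs in the 2 tissues, and neither passed the test (-0.40 in medulla, adjusted p = 0.243, and 0.25 in cortex, adjusted p = 0.769, from limma). Every lithium medulla array lay below the control medulla mean and every lithium cortex array above the control cortex mean. The difference of the effects, medulla minus cortex, was -0.64 (unadjusted p = 0.0188, adjusted p = 0.328 from limma), which did not pass either. The cortex value was 0.077 without animal 19, and by scan group it was 0.19, 0.63 and -0.093.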

How the results depend on the processing

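The count of laminin chains called was 0 in cortex, 0 in medulla and 0 for the tissue difference of the lithium effect under every alternative run, except that it was 1 in cortex with no filter (Lama3). For control medulla against control cortex it was 6, and 5 to 6 without single control animals. With the animal as a replicate block it was 0 and 6, and no call of a chain changed. In medulla, the log2 fold change of Lamc3 was -0.045 with array medians centred, -0.011 with quantile normalization repeated and -0.45 without control animals 15 and 30, and ran from -0.28 to 0.22 with 1 array left out. That of Lamb3 was 0.41, of Lamb1 -0.12 and of Lama1 -0.0065 without control animals 15 and 30. With 1 array left out, that of Lamb3 ran from -0.41 to 0.12 and that of Lamb2 from -0.17 to 0.021. The tissue difference of Lamc3 was 0.21 as deposited, 0.40 without control animals 15 and 30, and -0.33 to 0.14 without single animals. With all clusters tested, Lama3 in cortex had an adjusted p of 0.000692 without scan group, 0.0245 with array medians centred and 0.0151 with quantile normalization repeated, settings chosen after seeing the data, as was leaving out control animals 15 and 30. The causes were not tested.

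Over all clusters, 79 passed in cortex and 190 in medulla, against 288 and 1052 without scan group, 14 and 37 by the methods' t-test after Benjamini-Hochberg, and 143 and 558 by it at an unadjusted p under 0.05 and a fold over 1.5. In medulla 1053 passed without lithium-treated animal 6 and 50 without animals 21 or 22. Control medulla against control cortex gave 64.4% higher and 7.93% lower as deposited, and 27.1% and 23% after quantile normalization of all arrays, against 34.5% and 17.9%.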
